A study of Mus musculus with 4 samples.

Results

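Wnt receptors and secreted Wnt modulators were examined on 4 Affymetrix arrays of cultured mouse embryonic fibroblasts. The genes were the receptors Ryk, Fzd1, Fzd2 and Fzd7 and the secreted modulators Sfrp1, Sfrp2, Frzb and Dkk3. Every probe set whose platform annotation gave exactly 1 gene symbol, and that symbol one of these, was taken, which gave 9 probe sets for 8 genes of the 8251 genes named on the array. Ryk had 2 probe sets and the other genes 1 each. No probe set annotated with several symbols included any of them.

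All cells carried a Men1 knockout on a mixed FVB;129Sv background, so that neither group is an unmodified fibroblast. Cells of 2 arrays had been given Men1 back (Men1-complemented) and cells of the other 2 had been given vector. The titles number the arrays of each group 1 and 2 and do not say what the number stands for, nor whether the arrays came from separate cultures or from 1 clone. Cells grew in medium with 10% serum and were harvested 24 h after seeding at 70% density. The study's stated aim was to find target genes of menin, the nuclear scaffold protein encoded by Men1.

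Wnt proteins are secreted lipid-modified ligands that bind the cysteine-rich domain of Frizzled receptors, multi-pass membrane proteins that act with the coreceptors Lrp5 and Lrp6 to stabilise beta-catenin, or act without it through small GTPases and kinases. Ryk is a single-pass Wnt receptor with an inactive kinase domain. Secreted Frizzled-related proteins (Sfrp1, Sfrp2 and Frzb) carry a domain like that of Frizzled and bind Wnt outside the cell, and Dkk3 is a divergent member of the Dickkopf family of secreted proteins. Fibroblasts are a common source of such modulators in connective tissue.

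The 8 genes were chosen by their role with the signals of these same arrays, compared by group and by array number, already known. Their values are therefore a description, without a test. Signals are the authors' linear MAS5 values, and differences are on the scale log2(signal + 16), which understates the fold of dim probe sets. Standard errors (SE) of differences come from limma fitted to all 12422 probe sets.

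Across the 12422 probe sets, 0 passed an adjusted p of 0.05 in limma (0% called), and 233 had an unadjusted p under 0.05 (1.88%). Men1 itself had 1 probe set, with signals of 18.8 and 22.5 in the complemented cells that lay between the vector signals of 18.1 and 29.5. No source used here places this probe set inside or outside the deleted part of the gene, so it is no check of the labels. The highest signal among 15 bacterial control probe sets was 15.9 to 27.4 per array, and a signal at or below that of its own array is called at control level. By this measure Men1 was at control level on both complemented arrays and above it on both vector arrays. The highest controls were 25.9 and 27.4 on the former and 15.9 and 20.0 on the latter. As the Men1 signals of the groups overlap, no direction is read from this. Of 12 fibroblast markers, Col1a1 read 6057 to 7619, whereas Thy1 was at control level on all arrays and Vim read only 24.2 to 37.5. The ratio of 3′ to 5′ signal was 1.08 to 1.18 for Actb and 0.743 to 0.850 for Gapdh, and for both genes it was lower on array 2 than on array 1 of each group.

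**Figure D1:**
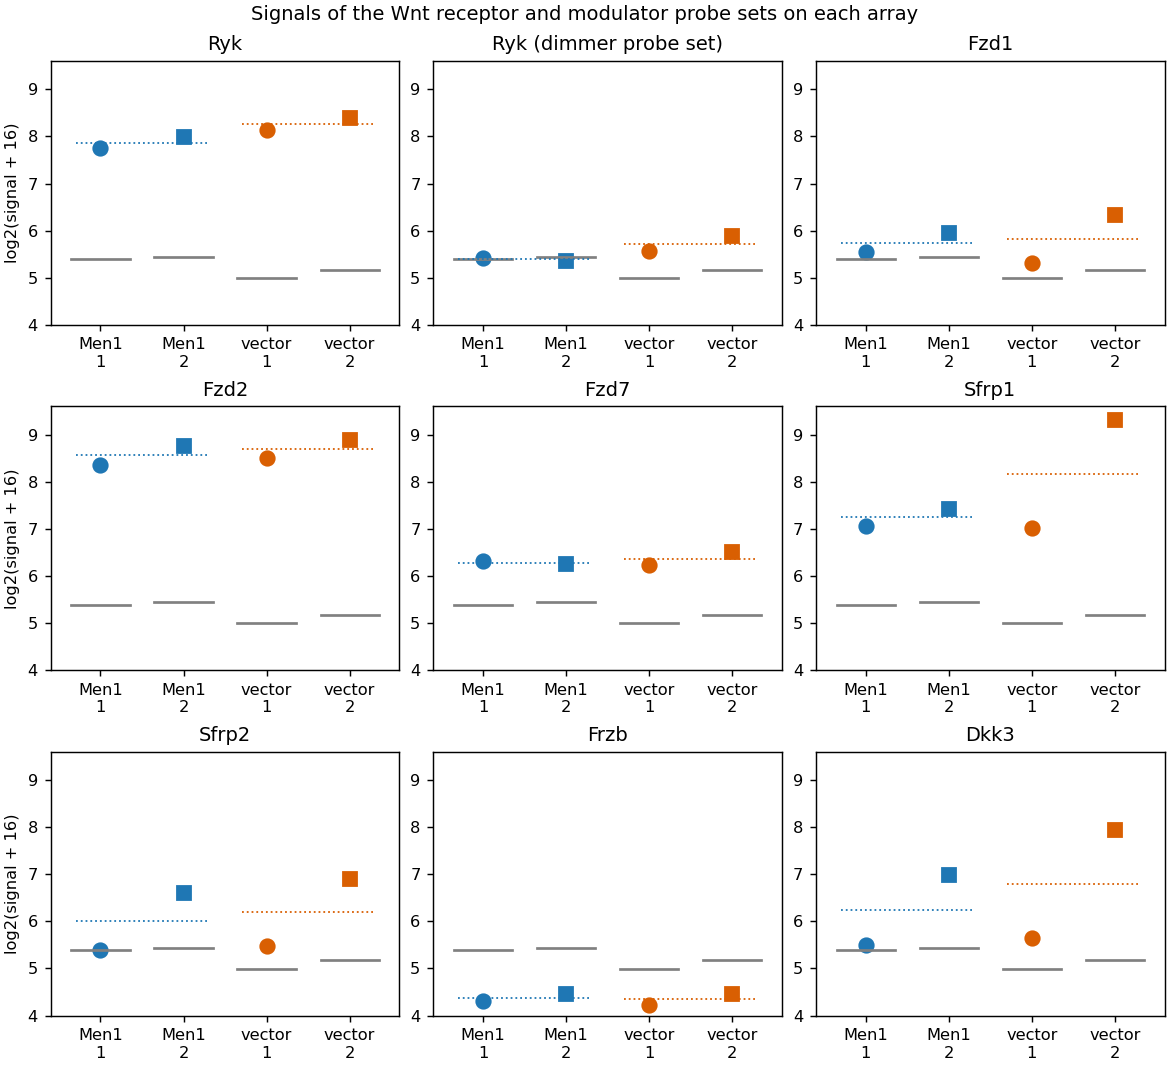
Signal of each Wnt receptor and modulator probe set, as log2(signal + 16), on the 2 Men1-complemented (blue) and 2 vector arrays (orange); circles are arrays numbered 1 and squares arrays numbered 2. Dotted lines are group means and grey bars the highest bacterial control of that array; Sfrp2 and Dkk3 are high on both squares, Sfrp1 on the vector square, and Frzb lies under the grey bars throughout.

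The promoters of Sfrp2 and Fzd1, which were both higher on the arrays numbered 2, and of Ryk, the gene that separated the groups, are shown from 250 bases before to 50 bases after the annotated start (RefSeq, GRCm38.p6). RefSeq promoters were matched by symbol for 5 of the 8 genes. Capitals mark matches on either strand to any of 5 motifs. These were the TATA box TATAAA, the box named after its letters CCAAT, the GC box GGGCGG, and for the TCF/LEF factors of the Wnt pathway the core written CTTTGAT with its variant written CTTTGAA. No 2 matches in the windows shown overlapped.
Sfrp2, chr3:83766071-83766370, plus strand: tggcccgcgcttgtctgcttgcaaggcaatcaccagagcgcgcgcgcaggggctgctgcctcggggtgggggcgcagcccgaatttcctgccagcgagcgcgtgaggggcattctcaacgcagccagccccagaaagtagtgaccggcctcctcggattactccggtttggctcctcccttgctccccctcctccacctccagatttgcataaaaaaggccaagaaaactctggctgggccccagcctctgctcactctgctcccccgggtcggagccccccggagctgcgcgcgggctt
Fzd1, chr5:4758167-4758466, minus strand: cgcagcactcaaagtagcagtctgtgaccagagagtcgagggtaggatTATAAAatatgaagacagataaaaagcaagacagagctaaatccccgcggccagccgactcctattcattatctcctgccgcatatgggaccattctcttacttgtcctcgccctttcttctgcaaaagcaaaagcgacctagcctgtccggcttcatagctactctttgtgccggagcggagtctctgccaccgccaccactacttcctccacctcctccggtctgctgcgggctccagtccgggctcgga
Ryk, chr9:102834670-102834969, plus strand: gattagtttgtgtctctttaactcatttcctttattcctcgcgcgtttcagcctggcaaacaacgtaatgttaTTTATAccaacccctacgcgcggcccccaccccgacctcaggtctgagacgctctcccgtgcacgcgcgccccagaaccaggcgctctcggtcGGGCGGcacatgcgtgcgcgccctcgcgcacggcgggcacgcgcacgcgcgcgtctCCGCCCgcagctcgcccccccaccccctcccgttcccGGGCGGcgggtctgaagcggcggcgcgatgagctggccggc

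The Sfrp2 window held none of the 5 motifs. The Fzd1 window held TATAAA once, 202 bases before the start, and the Ryk window held GGGCGG on both strands, 3 times in all, and TATAAA once on the strand opposite to the gene. The core CTTTGAT was in none of the 5 windows, including those of Fzd7 and Frzb, and in 3.73% of all 32851 promoters of this length. Its variant CTTTGAA was likewise in none and in 5.14% of all. The TATA box was in 13.6%, the CCAAT box in 37.4% and the GC box in 35.7% of them. The Ryk window had 42 CpG dinucleotides, Sfrp2 22 and Fzd1 16, where the median promoter had 7. A match is a description of these letters and no match says only that they are not in this window.

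Among the receptors, Ryk was the gene whose groups did not overlap. Its brighter probe set gave signals of 199.2 and 237.5 in the Men1-complemented cells, against 263.6 and 321.6 in the vector cells. Both Men1-complemented signals were below both vector signals. The mean was 218 ± 27.1 with Men1 and 293 ± 41.0 with vector (SD, n = 2 each), and the log2 difference was -0.40 (SE 0.20). It was -0.38 between the arrays numbered 1 and -0.41 between the arrays numbered 2.

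The dimmer Ryk probe set gave 26.9 and 25.0 with Men1, against 31.2 and 42.7 with vector. These signals did not overlap either, but with Men1 they lay at the level of the controls, above it on 1 array and below it on the other. Their log2 difference was -0.33 (SE 0.20), with -0.14 between the arrays numbered 1 and -0.52 between those numbered 2. Across all probe sets, both Men1-complemented signals were below both vector signals in 11.7% and above them in 10.4%. Of the 9 probe sets here, 2 were below, both of Ryk, and 0 were above. As these are 1 gene, the count by gene is near that share and nothing is read from it. The limma confidence interval of the brighter probe set, -0.92 to 0.13, included 0. The direction for Ryk was the same in each of the 8 other settings, between -0.53 and -0.26 for the brighter probe set. Where groups do not overlap, leaving out 1 array or changing the pseudocount cannot turn the sign. A replicate block leaves the difference as it is, so only quantile normalization could have turned it. In bulk RNA of this kind, fewer cells of a type and less RNA per cell cannot be told apart.

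The Frizzled receptors overlapped between the groups. Fzd2 read 314.1 and 420.6 with Men1, against 348.5 and 456.6 with vector, a log2 difference of -0.13 (SE 0.24). Both arrays numbered 2 exceeded both arrays numbered 1, by 0.40 log2 in the Men1-complemented and 0.37 in the vector cells. This separation by number was larger than the separation by group, which was -0.14 and -0.11 within the array numbers.

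Fzd1 read 30.7 and 45.6 with Men1, against 24.0 and 65.0 with vector. The vector signals enclosed the Men1-complemented ones, and the log2 difference was -0.09 (SE 0.39). Within the arrays numbered 1 Fzd1 was higher with Men1 by 0.22, and within those numbered 2 the difference was -0.40. Array 2 exceeded array 1 by 0.40 in the Men1-complemented and by 1.02 in the vector cells.

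Fzd7 showed the narrowest range of the probe sets above control level on all arrays. It read 63.9 and 60.1 with Men1, against 59.1 and 74.7 with vector, a span of 0.27 log2 over the 4 arrays. The groups overlapped, the array numbers overlapped, and the group difference was -0.08 (SE 0.19).

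**Figure D2:**
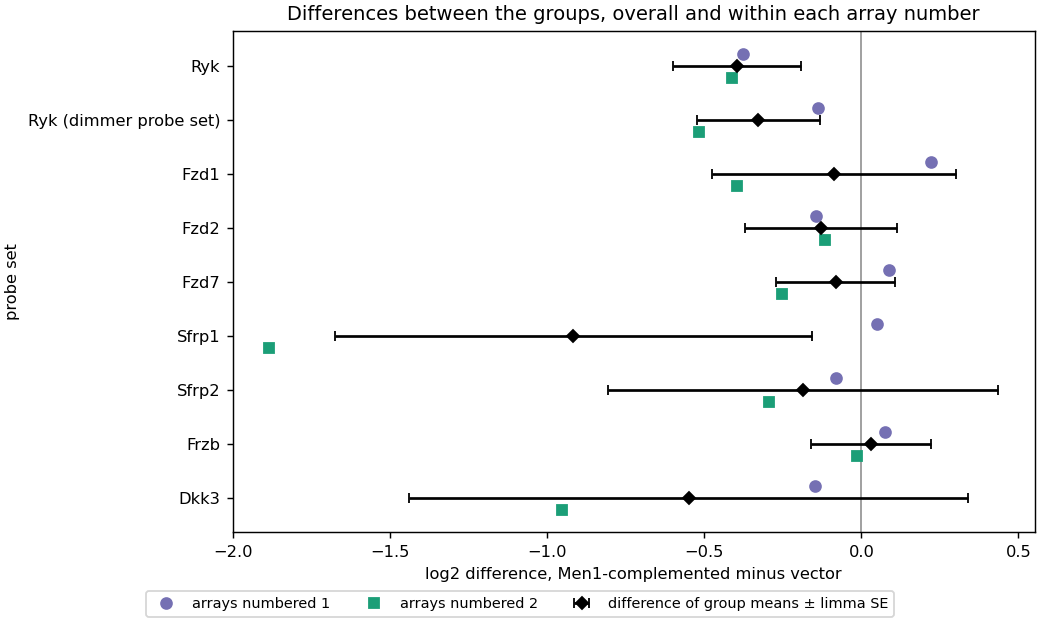
Log2 difference, Men1-complemented minus vector, for each Wnt receptor and modulator probe set: black diamonds are differences of group means with the limma SE, violet circles the difference within arrays numbered 1 and green squares within arrays numbered 2. The brighter Ryk probe set lies at -0.38 and -0.41 within the array numbers and the dimmer one at -0.14 and -0.52, whereas Sfrp1 is at 0.05 within number 1 and -1.89 within number 2.

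Of the secreted modulators, Sfrp1, Sfrp2 and Dkk3 varied more over the 4 arrays than any of the receptors, and mostly within the groups. Sfrp1 spanned 2.29 and Dkk3 2.44 log2, where the widest receptor, Fzd1, spanned 1.02. Sfrp1 read 118.3 and 155.1 with Men1, against 113.6 and 616.5 with vector. Vector array 2 stood apart, 3.97 times the Men1-complemented array of the same number, whereas vector array 1 was the lowest of the 4. The log2 difference was -0.92 (SE 0.76), made up of 0.05 within the arrays numbered 1 and -1.89 within those numbered 2. Without vector array 2 the difference was 0.23, and without vector array 1 it was -2.06, so that its direction rested on 1 array.

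Sfrp2, like Sfrp1, was higher on both arrays numbered 2 than on both numbered 1, here by more than 1 log2 in each group. It read 26.2 and 28.6 on the arrays numbered 1, of the Men1-complemented and the vector cells in that order, and 81.7 and 103.7 on the arrays numbered 2. Array 2 was 3.12 times array 1 with Men1 and 3.63 times with vector (1.21 and 1.42 on the log2 scale). The signal of 26.2 was close to that array's highest control of 25.9, so the size of this ratio is uncertain. Between the groups the difference was -0.19 (SE 0.62), with -0.08 and -0.29 within the array numbers.

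Dkk3 followed the array number in the same direction and also differed between the arrays numbered 2. It read 29.4 and 34.3 on the arrays numbered 1 and 110.9 and 229.7 on the arrays numbered 2, again with the Men1-complemented cells first. Array 2 exceeded array 1 by 1.48 log2 with Men1 and by 2.29 with vector. The group difference was -0.55 (SE 0.89), with -0.15 within number 1 and -0.95 within number 2. Without vector array 2 it was 0.59, and without vector array 1 it was -1.69.

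Frzb, a secreted Frizzled-related protein known from cartilage and bone, read 3.7 and 5.9 with Men1, against 2.7 and 6.1 with vector. All 4 signals were at control level, so no fold is given.

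Both arrays numbered 2 were above both arrays numbered 1 for 6 of the 9 probe sets (Fzd1, Fzd2, Sfrp1, Sfrp2, Dkk3 and, at control level, Frzb) and for 28.7% of all probe sets. A signal at least 1 log2 higher on array 2 than on array 1 in both groups was seen for Sfrp2 and Dkk3 and for 0.394% of all probe sets. These shares are given beside the counts as background, and nothing is read from them because the genes were chosen with these values known. The median probe set differed between array 2 and array 1 by 0.01 log2 with Men1 and by 0.13 with vector, and the median absolute difference was 0.20 and 0.31. Fzd1, Fzd2, Sfrp1, Sfrp2 and Dkk3 exceeded the latter values in both groups. The brighter Ryk probe set differed by 0.24 and 0.27 and Fzd7 by -0.07 and 0.27. The 3′ to 5′ ratios above also differed by array number, and their part in these differences was not tested. All 9 probe sets had their highest signal on vector array 2, as did 42.0% of all probe sets.

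**Figure D3:**
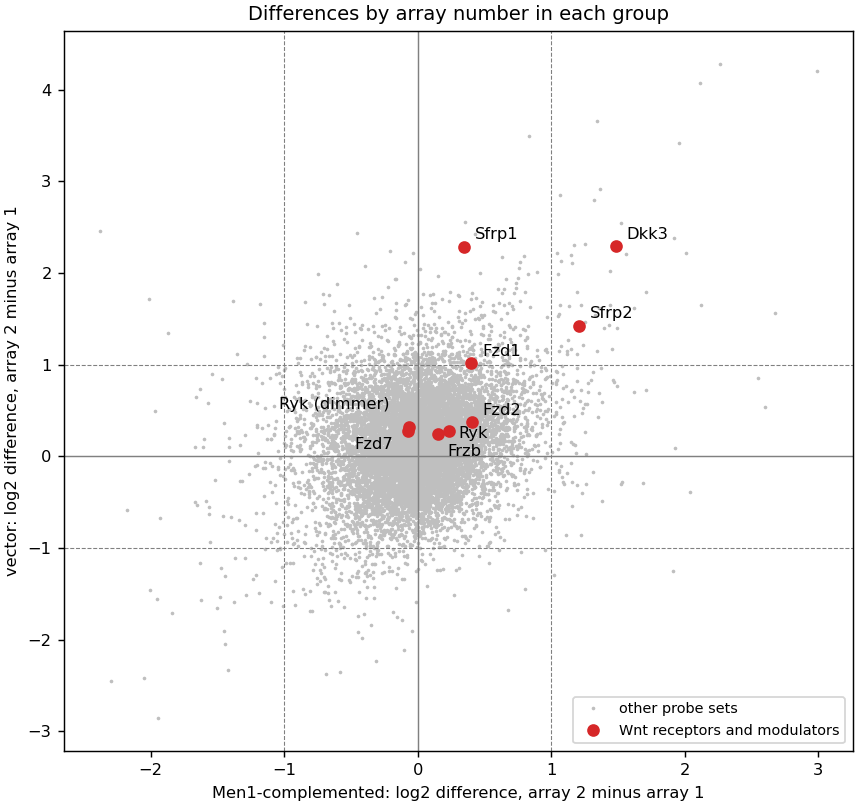
Log2 difference between array 2 and array 1 in the Men1-complemented cells (horizontal) and in the vector cells (vertical) for all 12422 probe sets (grey) and for the Wnt receptors and modulators (red); dashed lines mark a difference of 1. Sfrp2 and Dkk3 lie past 1 in both groups, Sfrp1 (0.35 and 2.29) and Fzd1 (0.40 and 1.02) in the vector cells, and the others stay near the bulk.

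The markers of cell types are given by array number and by group. Of 47 measured, 17 were higher on both arrays numbered 2 and 7 on both numbered 1, against 3569 (28.7%) and 1987 of all 12422 probe sets. Of 5 smooth muscle markers, Acta2, Tagln and Cnn1 were higher on both arrays numbered 1. The summed signal of the list was 8932 and 11108 on the arrays numbered 1 and 5465 and 5187 on those numbered 2, Men1-complemented first. Cnn1, calponin, read 882.1 and 1547.7 on the arrays numbered 1 and 217.0 and 199.9 on those numbered 2. Myh11, which defines mature smooth muscle, was at control level on all arrays.

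Of the 12 fibroblast markers, 7 were higher on both arrays numbered 2 and 1, Pdgfrb, on both numbered 1. Col1a1, Twist1, Vim and Thy1 overlapped between the array numbers. The summed signal, mostly Col1a1, was 9276 on array 1 and 7978 on array 2 with Men1, and 7470 and 9435 with vector. Col1a1 itself differed between array 2 and array 1 by -0.30 log2 with Men1 and by 0.23 with vector. Prrx1, a mesenchymal transcription factor, read 25.1 and 16.5 on the arrays numbered 1 and 54.0 and 125.6 on those numbered 2. Dcn, the proteoglycan decorin, read 18.7 and 18.5 against 37.7 and 139.3. These differences were the largest of the list in the vector cells (2.12 and 2.17 log2). Both genes were at control level on Men1-complemented array 1. Of 5 epithelial, 5 endothelial and 5 blood markers, 2, 1 and 3 were higher on both arrays numbered 2 and 0 on both numbered 1. Of these, Krt8, Epcam, Cdh5, Tie1, Tek, Adgre1 and Ptprc were at control level throughout, as was Thy1 among the fibroblast markers. Of 3 measured bone and cartilage, 4 skeletal muscle, 4 adipocyte and 4 neural markers, 1, 1, 0 and 2 were higher on both arrays numbered 2 and 0, 1, 1 and 1 on both numbered 1. Between the groups, 6 of the 47 were below vector without overlap and 4 above, against 11.7% and 10.4% of all probe sets, and 0 passed in limma. One of the 6 was Myog, the muscle transcription factor myogenin, with 23.7 and 28.1 with Men1, against 68.1 and 53.3 with vector. Its log2 difference was -0.87 (SE 0.20, unadjusted limma p 0.00734), and it was chosen after its values were seen. With Men1 its signals lay at the level of the controls (25.9 and 27.4), below it on array 1 and above it on array 2. The other measured skeletal muscle markers, Actc1, Myod1 and, at control level on all arrays, Myf5, differed by -0.01, -0.06 and 0.15. The part of these markers in the signals of Ryk, Sfrp1, Sfrp2 and Dkk3 was not tested.

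For the 4 genes that spanned at least 1 log2, the genes with the nearest pattern were found among 6512 probe sets above the controls on all arrays, by Euclidean distance between centred log2 values over the 4 arrays. Nearest to Sfrp2 were Fst, the activin antagonist follistatin (distance 0.09), Npr3, a natriuretic peptide clearance receptor (0.23), and Tgfbi, a TGF-beta-induced matrix protein (0.25). Fst read 45.9 and 46.1 on the arrays numbered 1 and 131.4 and 155.4 on those numbered 2. Nearest to Dkk3 were the forkhead factor Foxd1 (0.37), Perp (0.37) and the tetraspanin Cd82 (0.48).

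The nearest to Sfrp1 were Prp2 (0.43), Gpc3, a cell surface glypican (0.48), and Perp (0.52). Gpc3 read 85.9 and 83.6 with Men1, against 51.4 and 296.9 with vector, so that vector array 2 stood apart there as for Sfrp1. Nearest to Fzd1 were Txnip (0.03), Col6a1, a collagen VI chain (0.04), and Cubn (0.06). With 4 arrays such likeness is a description only.

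The other genes of the pathway were taken from 6 lists, each gene by its probe set of highest mean. Of 133 listed genes 87 were measured, and 0 passed in limma in either direction. At an unadjusted limma p under 0.05, 3 were higher with Men1 (Reck, Id2 and, at control level on all arrays, Frat1) and 1 was lower (Wnt3), against 1.88% of all probe sets. Of the 87, 46 were higher and 41 lower, with a median log2 difference of 0.03. Of the 8 receptors and modulators described first, 7 were lower and 1, Frzb at control level, was higher, with a median of -0.16. Over all probe sets 52.8% were lower, with a median of -0.01. The count for the 8 genes rested on single arrays. Without vector array 2, 1 was lower (Ryk) and 7 were higher, with a median of 0.19, beside 60 of the 87 other genes higher and 41.3% of all probe sets lower. Without Men1-complemented array 1, 3 were lower and 5 higher, with a median of 0.09, and without either of the other arrays all 8 were lower.

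**Figure D4:**
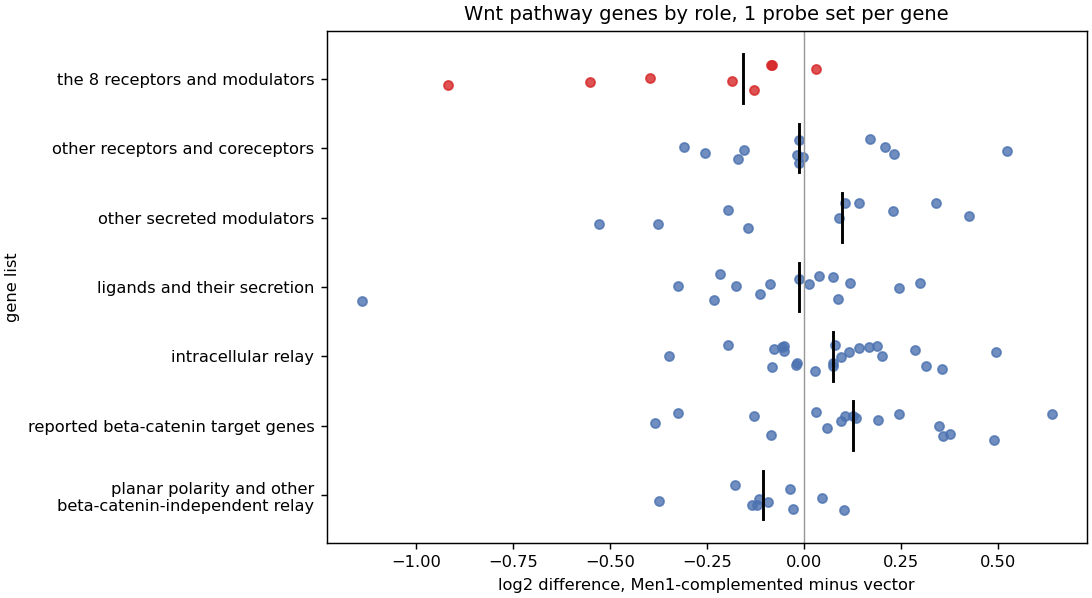
Log2 difference, Men1-complemented minus vector, for each gene of the Wnt pathway by role (1 point per gene, scattered vertically for visibility; black bars are medians). The 8 receptors and modulators (red) have a median of -0.16, and the medians of the 6 other lists (blue) lie between -0.10 and 0.13; without vector array 2 the former is 0.19 and the latter lie between 0.05 and 0.27.

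The remaining receptors and coreceptors were 4 higher and 8 lower (12 measured, median -0.01). The coreceptors Lrp5 and Lrp6 differed by -0.01 (SE 0.25) and 0.21 (SE 0.20). Fzd4 and Fzd3 differed by -0.01 (SE 0.20) and -0.25 (SE 0.20). The dimmer Fzd3 probe set differed by 0.26 (SE 0.38). It was above control level on vector array 1 alone (22.5), so no direction is read from it. Ptk7, a Wnt coreceptor with an inactive kinase domain, differed by -0.31 (SE 0.30). Its highest signal, 207.9, was on vector array 2, as for 42.0% of all probe sets. Lrp6 read 465.8 and 457.9 with Men1, against 352.1 and 449.0 with vector, without overlap, whereas its dimmer probe set differed by -0.08. Reck, a membrane-anchored protease inhibitor that also serves Wnt7 signalling, read 30.5 and 34.5 against 14.9 and 20.8, near the controls.

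The list of other secreted modulators also holds the glypicans Gpc3 and Gpc4, which are cell surface proteins. Among its 10 measured genes, 6 were higher and 4 lower (median 0.10). On all arrays 6 were at control level, including the Dickkopf genes Dkk1 and Dkk2 and the R-spondin gene Rspo1. The glypican Gpc4 had the highest mean signal of this list and read 377.0 and 301.3 with Men1, against 481.6 and 313.1 with vector. Cer1, a secreted antagonist of the Cerberus family, was above control level on vector array 2 alone (22.4). Igfbp4, an IGF-binding protein that also acts on Frizzled and Lrp6, read 52.3 and 71.1 with Men1, against 13.9 and 159.6 with vector in its brightest probe set. As for Sfrp1 and Gpc3, vector array 2 was the highest of the 4. Its other 2 probe sets differed by -0.51 and, at control level on all arrays, by 0.43.

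Of 15 measured genes of Wnt ligands and their secretion 7 were higher and 8 lower (median -0.01), and 6 were at control level throughout. Wnt5a, a ligand that often acts without beta-catenin, read 121.3 and 119.9 against 127.8 and 99.1, and Wls, the carrier that takes Wnt to the cell surface, 315.8 and 262.5 against 321.2 and 414.5. The ligand Wnt1 read 79.0 and 91.3 against 64.8 and 91.1, and Wnt6 was at control level on all arrays. Wnt3, at control level with Men1 (14.3 and 10.5), read 50.3 and 42.8 with vector, at least 1.46-fold higher there, where the limma p was 0.0019 unadjusted and 1 adjusted.

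The intracellular relay was 14 higher and 9 lower of 23 (median 0.08). Ctnnb1, beta-catenin itself, read 1105.3 and 1070.6 with Men1, against 1344.0 and 979.6 with vector, which overlap. The kinase Gsk3a, which phosphorylates beta-catenin for destruction, had the highest mean signal and read 2694.7 and 1989.6 against 2259.1 and 1791.1. Axin1, the scaffold of its destruction complex, differed by 0.35 (SE 0.20) and the corepressor Tle5 by -0.35 (SE 0.24).

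Reported beta-catenin targets were 13 higher and 4 lower of 17 (median 0.13), and 4 were at control level throughout. Myc differed by 0.64 (SE 0.28), Id2 by 0.49 (SE 0.19), the cyclin Ccnd1 by 0.13 (SE 0.19) and Ccn4, a matricellular protein, by 0.03 (SE 0.24). Fosl1, an AP-1 subunit, differed by 0.36 (SE 0.22). Bmp4, a secreted ligand of the TGF-beta superfamily, differed by -0.38 (SE 0.52) in its brighter probe set and by -0.70 (SE 0.57) in the dimmer one. Both had their highest signal on vector array 2 and their lowest on vector array 1, so the direction rested on 1 array. The dimmer one was at control level on both Men1-complemented arrays. Of these targets, Myc read 369.7 and 401.5 with Men1, against 312.0 and 186.4 with vector. Its lowest signal was on vector array 2, where Sfrp1 and Dkk3 were highest.

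Genes of planar polarity and other relay without beta-catenin were 2 higher and 8 lower of 10 (median -0.10). Celsr2, an atypical cadherin of planar polarity, differed by -0.37 (SE 0.40), and the GTPases Rac1 and Rhoa by -0.03 (SE 0.18) and -0.18 (SE 0.23). The kinase Mapk8 differed by -0.12 (SE 0.19) and the transcription factor Nfatc1 by -0.13 (SE 0.37). Celsr2 read 97.7 and 119.3 with Men1, against 93.2 and 220.3 with vector, highest on vector array 2. Of all probe sets 42.0% were highest on that array, so nothing is read from this for Ptk7, Gpc3, Igfbp4, Bmp4 or Celsr2.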

How the data were processed

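The deposited table holds linear signal intensity per probe set, for which the submitters' processing notes name MAS5 and Affymetrix Expression Console as the authors' tools; neither version nor scaling target is given in the sources used here. The 66 control probe sets were left out, leaving 12422, of which 10833 had 1 gene symbol, 396 several and 1193 none. Gene IDs of 10817 were found in the RefSeq gene table (GRCm38.p6), used for names.

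Values were analysed as log2(signal + 16) without further normalization. Groups were compared by two-sided moderated tests (limma 3.58.1, R 4.3.3; lmFit, eBayes), adjusted after Benjamini and Hochberg over 12422 probe sets. This fit, with 2 residual degrees of freedom, was tested on simulated data. The number of arrays limits the precision: 2 against 2 allow no exact permutation p below 0.333, and since no label says the replicates were separate cultures, p-values reflect only a spread among arrays that may be technical.

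The genes and lists were chosen with earlier results of these data known. The text names the 8 genes, Men1, the 3 genes of each pathway list with the largest difference and the 3 with the highest mean signal, and the 3 nearest patterns of each gene spanning 1 log2. Other pathway genes and markers are named where a count or a value turns on them.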

Additional observations from a re-analysis of the deposited data

How the results depend on the processing

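No probe set passed the adjusted threshold in limma with a pseudocount of 1 or 64, quantile normalization, a filter on dim probe sets, control probe sets kept, limma-trend, a replicate block or any 1 array left out, and none of the 87 pathway genes did with every probe set, with the block or without any 1 array. In place of the adjusted threshold, an unadjusted p under 0.05 took 233 probe sets. That number was 64 with the filter (5848 tested) and ranged from 121 to 1031 without single arrays: 121 and 131 without Men1-complemented arrays 1 and 2, and 1031 and 559 without vector arrays 1 and 2. A group left with 1 array takes its spread from the other group in these fits. With the replicate number as a block the number was 297 and 0 passed. The differences by number correlated between the groups (0.26 over all probe sets), but the labels do not pair the arrays. Probe sets past 1 log2 by array number in both groups numbered 78, against 406 and 19 with pseudocounts of 1 and 64, 36 with the filter and 623 at 0.5 log2. Of the 9 Wnt probe sets, 6 were higher on both arrays numbered 2, and 2, both of Ryk, were lower on both Men1-complemented arrays. These counts were the same with quantile normalization, and a pseudocount cannot change them. The size past 1 log2 by array number was less stable, as the mean Sfrp2 difference was 0.77 with a pseudocount of 64. Of the 8 genes, the number lower with Men1 was 7 with both pseudocounts, quantile normalization and the block, and 1 to 8 without single arrays. The sign of the group difference held in 8 of 8 settings for both Ryk probe sets and in 7 for Fzd7 and Sfrp1. For Fzd1, Fzd2, Sfrp2, Frzb and Dkk3 it held in 6. The block cannot change a sign, nor, for the Ryk probe sets without overlap, can a pseudocount or leaving out 1 array. Fzd7 and Sfrp1 turned without vector array 2, to 0.05 and 0.23.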
